A study of Homo sapiens with 41 samples.

Results

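Genome-wide CTCF binding was compared between T47D cells exposed to 110 mM NaCl for 7.5 min and cells without stress, in 4 chromatin immunoprecipitation (ChIP-seq) libraries, 2 of each kind. These are 4 of the 41 samples of the series, of which 29 have a list of called peaks. They were chosen by title, from the earlier of 2 submissions, and only chromosomes 1 to 22 and X (hg38) of the deposited lists were used. T47D is an established luminal breast carcinoma line. Both groups had been kept for 48 h in steroid-depleted medium lacking phenol red and then overnight without serum, which the submitters describe as synchronisation in G0/G1. The stressed group then received NaCl, while the unstressed group received none. The titles give 110 mM, and the series text gives a slightly lower concentration. Nothing in the sources states whether replicates 1 and 2 came from separate cultures, so every p-value below measures only the spread between libraries. In the unstressed Pol II lists, 17 of 20 luminal breast genes held a Pol II region in both libraries, against 7 of 15 markers of other cell types. The median share of the gene covered was 100% in both libraries for the luminal genes, and 0.749 and 0% for the other markers. No share over all genes is set beside these counts, so they do not establish the cell type.

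CTCF is a zinc-finger protein that binds a long, GC-rich DNA motif and marks boundaries between chromatin domains. The ring-shaped cohesin complex, of which RAD21 is a subunit, extrudes chromatin loops and is halted at bound CTCF, so strong CTCF sites often carry RAD21 as well. Hyperosmotic stress draws water out of the cell within minutes, and cells answer with kinase signalling and, later, with transporters and enzymes that accumulate compatible osmolytes. Other CTCF lists, used only to follow the sites, come from 30 min and 1 h of NaCl in the same submission, and from single libraries of a later submission without stress, after 1 h of NaCl, and after 1 h of NaCl followed by 1 h in isotonic medium (recovery). The 7.5 min samples are the earliest stress time at which CTCF was profiled in the series.

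The sequences below show promoter sites that were and were not called again after NaCl. A site was every stretch covered by overlapping peaks of the 4 lists. It was called lost when both untreated lists and neither 7.5 min list held a peak there, which may also be binding too weak to be called, kept when all 4 did, and gained in the reverse of lost. The RefSeq promoter windows (GRCh38.p14, 250 bases before to 50 after each gene's start) were searched on both strands for a core of the CTCF motif, CCA and AG and GGC with 2 free bases after each of the first 2 elements, which is in capitals. None of the sites ranked strongest near gene ends held it in such a window, so the genes shown were chosen after their values were seen, as those of highest rank among the promoters with the motif. The first 4 lie in lost sites and the last 4 in kept sites, each printed 5′ to 3′ on the strand of its gene.
CAPN13: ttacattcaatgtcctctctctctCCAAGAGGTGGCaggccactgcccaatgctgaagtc
ABCD2: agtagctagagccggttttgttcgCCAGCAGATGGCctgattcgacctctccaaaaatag
ANO5: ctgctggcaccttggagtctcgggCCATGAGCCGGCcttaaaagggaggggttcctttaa
DEFB123: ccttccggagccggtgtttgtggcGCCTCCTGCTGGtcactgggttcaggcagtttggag
MREG: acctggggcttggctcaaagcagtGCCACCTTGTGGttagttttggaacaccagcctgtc
GRPR: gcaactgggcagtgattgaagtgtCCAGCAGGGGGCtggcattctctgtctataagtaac
TLR6: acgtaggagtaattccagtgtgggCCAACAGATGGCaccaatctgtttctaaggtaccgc
SLC14A2: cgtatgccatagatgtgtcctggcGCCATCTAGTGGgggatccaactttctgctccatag
In DEFB123, MREG and SLC14A2 the motif reads on the strand opposite the gene.

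The lost promoter sites printed above were called with fold enrichments of 12.8 and 12.2 in untreated replicates 1 and 2 at CAPN13, a calpain protease gene (chr2:30807517-30807576). At ABCD2, which encodes a peroxisomal fatty acid transporter (chr12:39619985-39620044), they were 9.85 and 8.99, and at ANO5, an anoctamin gene (chr11:22192506-22192565), 10.7 and 4.83. The match at ANO5 lay 125 bp from the untreated replicate 1 summit, against 0 to 28 bp in the other sequences, so it may not be the bound stretch. At DEFB123, a beta-defensin gene (chr20:31440415-31440474), they were 7.14 and 2.38, and none of these sites had a peak at 7.5 min. The fold is the authors' value, the caller's ratio of ChIP signal to local background at the summit, and sites are ranked by it only within a list. Folds of different lists are set side by side without a test, since each list has its own background. The 4 lost sites were all those outside chromosome 8 with the motif inside the site and 24 bases on each side of it upstream of the gene's start, while the 4 kept ones are the highest of 100, so their higher folds follow from the choice. MREG, the melanoregulin gene (chr2:216034138-216034197), had folds of 40.5 and 31.1 without stress and 33.2 and 33.6 at 7.5 min. GRPR, the gastrin-releasing peptide receptor gene (chrX:16123366-16123425), had 41.0 and 29.0 without stress and 39.3 and 30.9 at 7.5 min. TLR6, a Toll-like receptor gene (chr4:38856858-38856917), had 39.5 and 30.0, then 27.4 and 31.4. SLC14A2, a urea transporter gene (chr18:45212890-45212949), had 47.8 and 31.6, then 23.1 and 26.9.

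Over all 22131 windows of protein-coding genes, 2.52% held the motif, and among the 18453 windows with no CTCF peak 1.72% did. A kept site overlapped 1218 windows, of which 133 (10.9%, exact 95% interval 9.22 to 12.8%) held it. A lost site overlapped 104 windows, of which 5 (4.81%, 1.58 to 10.9%) did, and the 2 intervals overlap. Counting only windows that contained the summit of the untreated replicate 1 peak, the shares were 15.6% of 781 for kept and 8.62% of 58 for lost sites, again with overlapping intervals (13.1 to 18.4% and 2.86 to 18.98%). No window overlapped a gained site. Intervals throughout are exact Clopper-Pearson intervals and cover counting error only. A window without these letters says nothing about binding outside it or by a variant of the motif.

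Fewer CTCF peaks were called after 7.5 min of NaCl in both libraries. The untreated lists held 59843 and 43835 peaks and the 7.5 min lists 36962 and 31074, with means of 51839 ± 11319 and 34018 ± 4163 (SD, n = 2). Both stressed lists were shorter than both untreated lists, and the groups did not overlap. The log2 ratio of the group means of log2 peak number was -0.60 (exact 2-sided permutation test, p = 0.333, the smallest this design allows). Between libraries of the same number the log2 ratio was -0.70 for replicate 1 and -0.50 for replicate 2. The bases covered by peaks fell in the same order, with 24.7 and 16.8 Mb in the untreated lists and 14.9 and 11.7 Mb in the 7.5 min lists. Median peak width was 380 and 367 bp without stress and 370 and 349 bp at 7.5 min, which overlapped between groups. The authors' median fold was 14.1 and 11.3 without stress and 12.6 and 12.5 at 7.5 min.

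The depth behind the lists was estimated from the numbers in them. In each list the largest set of peaks sharing 1 background fitted a single background pileup, 2.66 and 1.82 without stress and 2.59 and 1.79 at 7.5 min, in units of overlapping fragments. These were 27.6, 47.5, 36.5 and 46.1% of the peaks with a -log10 p under 60, in the same order. At those peaks the ChIP pileup took only whole multiples of 0.799, 0.427, 0.725 and 0.399 (100% of values within 0.05 of a whole number in each list), which would follow if MACS2 had scaled a larger ChIP library down to its control, as it does by default. The calling parameters are not stated, so this is an assumption. Under it, dividing the background by that step gave a mean ChIP fragment coverage of 3.34 and 4.26 without stress and 3.57 and 4.48 at 7.5 min. The stressed library had the slightly higher coverage within each replicate number, and the groups overlapped (exact permutation p = 0.667). The longest list, untreated replicate 1, came from the library of lowest coverage under this estimate. If the ChIP was scaled down, peaks were called at the scaled depth, that of the background pileup. This pileup was highest in untreated replicate 1 (2.66), and higher in the untreated library within each replicate number. Whether depth affected list length was not tested. Coverage combines read number and fragment length, so read totals themselves are unknown.

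**Figure D1:**
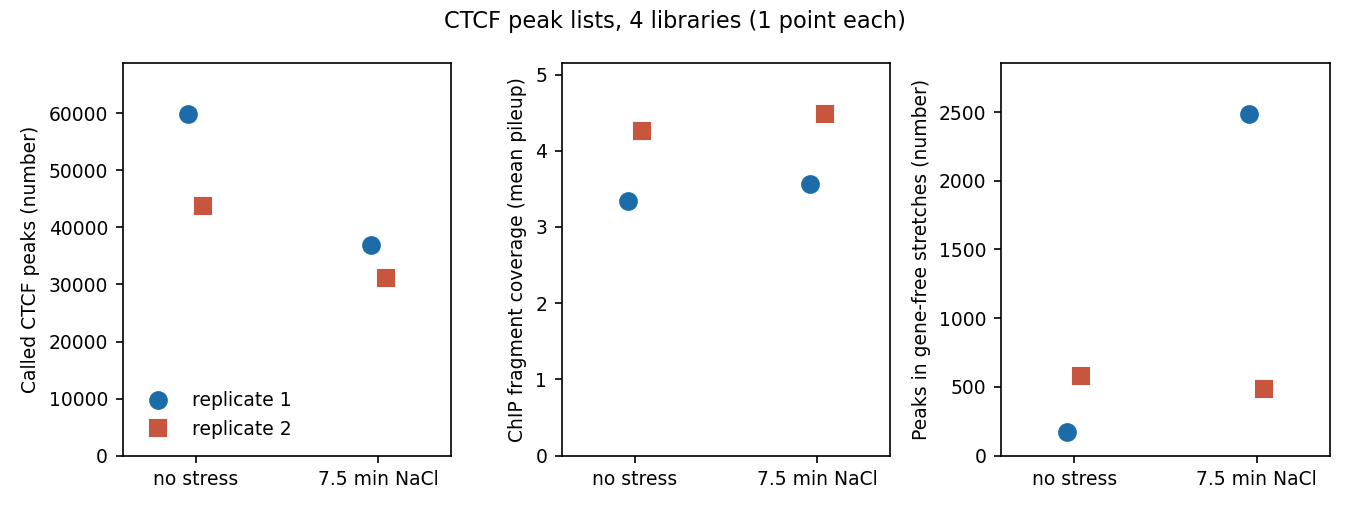
Called CTCF peaks (left), mean ChIP fragment coverage estimated under MACS2's default scaling (middle) and peaks in gene-free stretches (right) for the 4 libraries, circles for replicate 1 and squares for replicate 2. Both 7.5 min libraries have fewer peaks than both untreated libraries. Their coverage, taken before scaling to the control, overlaps that of the untreated libraries. Only 7.5 min replicate 1 stands far above the rest in gene-free peaks (2484 against 174 to 583).

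The peaks that remained were nearly all peaks already present without stress. Of the 7.5 min peaks, 92.0 and 88.5% (replicate 1, against untreated replicates 1 and 2) and 98.3 and 98.9% (replicate 2) overlapped an untreated peak. In the other direction, untreated replicate 1 found 56.5 and 50.8% of its peaks again in 7.5 min replicates 1 and 2, and untreated replicate 2 found 74.8 and 69.9%. The mean of these 4 shares was 63.0 ± 11.2% (SD over 4 pairs of lists that share libraries). Between the untreated lists the shares were 71.1 and 97.5%, and between the 7.5 min lists 79.0 and 94.4%. For equal list lengths, each list was cut to its 31074 strongest peaks by -log10 p, with ties ordered by fold. Then 89.2% of untreated peaks were overlapped at 7.5 min, so most of the shortfall lay among the weaker calls.

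Merging gave 63647 sites, of which 42508 were shared by both untreated lists. Of those shared sites, 28828 (67.8%) were kept and 8769 (20.6%) were lost. The other 4911 (11.6%) remained in a single 7.5 min list, 3420 of them in replicate 1 and 1491 in replicate 2. The reverse class was small: 100 sites were gained, 0.344% of the 29108 sites shared by both 7.5 min lists. A further 15732 sites were in untreated replicate 1 alone, against 682 in untreated replicate 2 alone, 2556 in 7.5 min replicate 1 alone and 144 in 7.5 min replicate 2 alone. The counts of lost and gained sites changed with the lists and peaks entered. With the 31074 strongest peaks of each list by -log10 p there were 869 lost, 803 gained and 25420 kept sites. Without untreated replicate 2, so that 1 untreated list sufficed, 24516 sites were lost, and with the untreated library of the later submission added as a requirement 1132 were.

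**Figure D2:**
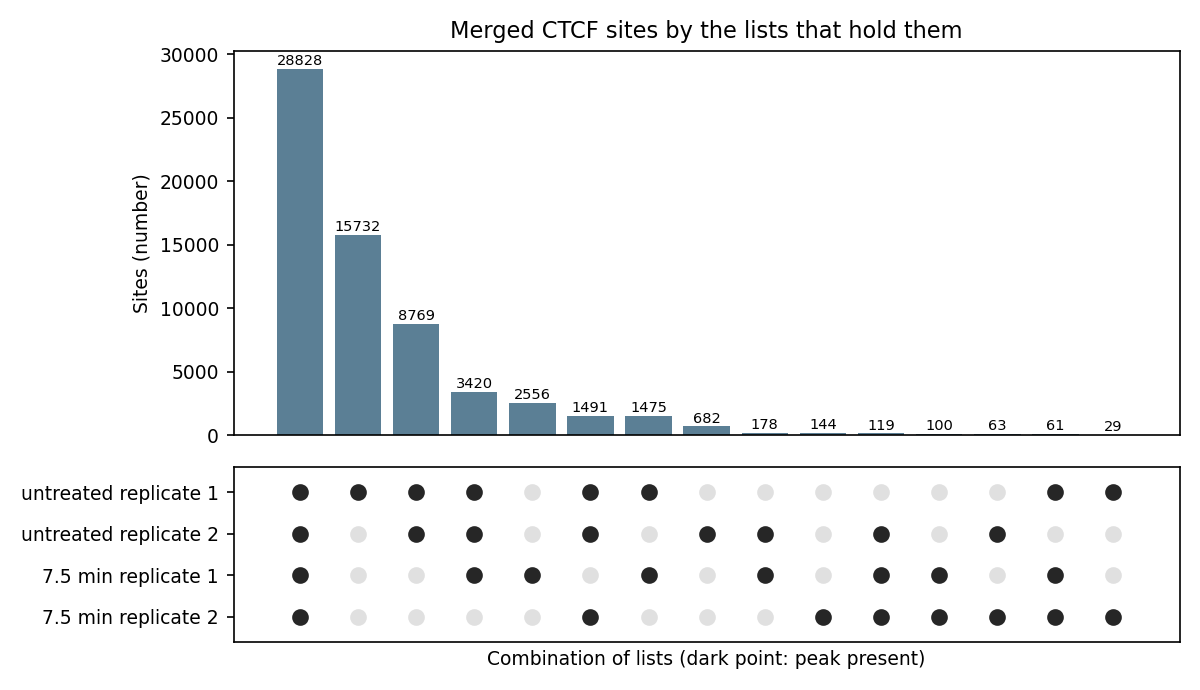
Number of merged CTCF sites (bars, linear axis) for each combination of the 4 lists, marked by dark points below. The 28828 sites in all 4 lists form the tallest bar, followed by 15732 in untreated replicate 1 alone and 8769 lost sites, while the 100 gained sites are barely visible.

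Sites called strongly without stress were nearly all called again at 7.5 min, and those not called again were mostly weak. By quintiles of the fold enrichment in the untreated list where a shared site ranked lower, 50.0, 40.4, 11.5, 1.13 and 0.0706% of sites were lost, from weakest to strongest. Because those ranks come from the lists that define the sites, this order is a description. Peak by peak, 3.48% of the weakest and 99.7% of the strongest quintile of untreated replicate 1 were overlapped in 7.5 min replicate 1. In untreated replicate 2 the same shares in 7.5 min replicate 2 were 30.2 and 99.8%. The untreated lists also recovered each other's weak peaks less well: 17.4% of the weakest quintile of replicate 1 had a peak in untreated replicate 2, against 88.9% in the other direction. In each quintile of either untreated list, the share found in the other untreated list was above the shares found at 7.5 min. The lowest decile of untreated replicate 2 broke the order, with 62.6% overlapped in 7.5 min replicate 1 against 38.3% in the next decile.

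**Figure D3:**
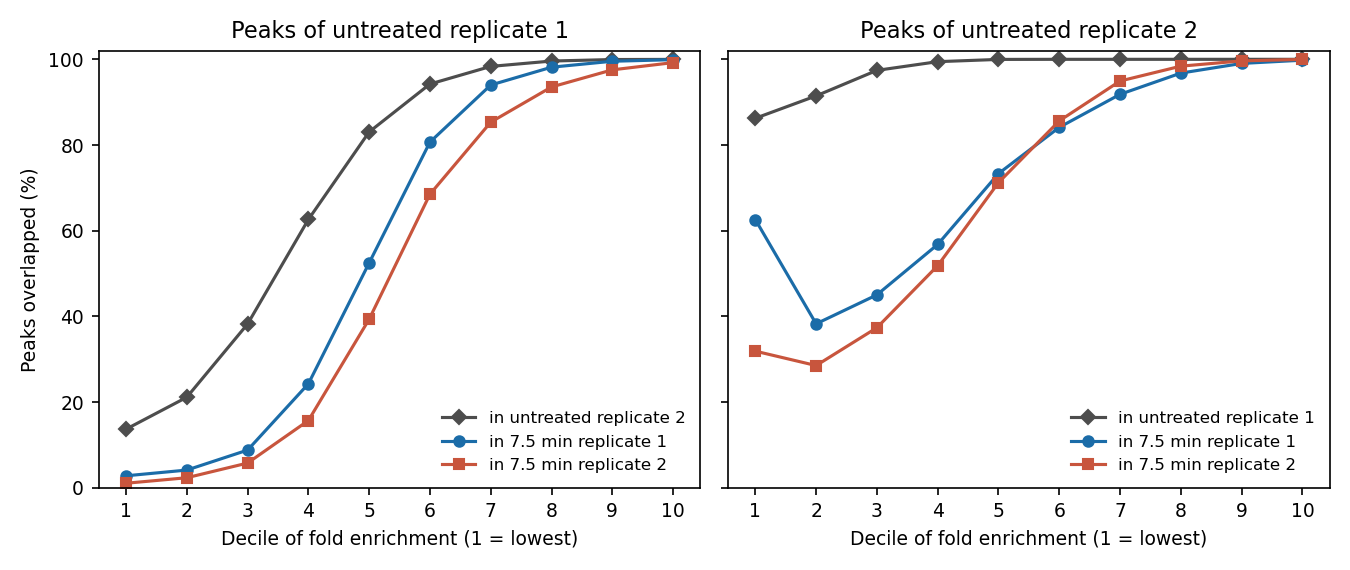
Percentage of the peaks of untreated replicate 1 (left) and untreated replicate 2 (right) overlapped in each other list, by decile of fold enrichment. The 7.5 min curves run below the curve of the other untreated list, and all curves reach over 99% in the highest decile.

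The median percentile of fold of lost sites was 20.5, against 61.2 for kept sites, and 291 lost sites (3.32%) were above the median of both untreated lists. Among the exceptions was chr8:34684025-34684560, an intergenic site with untreated folds of 31.1 and 25.7 and the highest percentile of any lost site (85.7). It had no peak at 7.5 or 30 min but one in both 1 h libraries. Other strong lost sites lay inside genes. In CDKL1, a cyclin-dependent kinase-like gene, the untreated folds were 27.9 and 26.8 (chr14:50342655-50343135). In CFAP54, a ciliary gene, they were 32.3 and 21.1 (chr12:96658016-96658481). In CDKAL1, a tRNA-modifying enzyme gene, they were 27.3 and 20.4 (chr6:21019560-21020038), and in CHD7, a chromatin remodeller gene, 25.4 and 21.9 (chr8:60746883-60747311). None of these 4 sites had a peak at 30 min or 1 h in the first submission.

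At kept sites the summits lay close together, and the order of strengths was most alike between libraries of the same number. Kept sites are defined by overlapping peaks, which limits how far apart summits can lie. The median distance between summits was 10 bp between untreated and 7.5 min replicate 1 and 9 bp for replicate 2, and 98.1 and 99.1% of summits lay within 50 bp. Across the 28828 kept sites, which share libraries and are not independent, the rank correlation of fold was 0.689 between untreated and 7.5 min replicate 1 and 0.840 for replicate 2. It was 0.493 between untreated replicate 1 and 7.5 min replicate 2, and 0.521 between untreated replicate 2 and 7.5 min replicate 1. Between the untreated libraries it was 0.480, and between the 7.5 min libraries 0.666. Libraries of the same number thus ranked the kept sites more alike than libraries of the same treatment did.

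Ends of protein-coding genes lay less than 1 kb from 430 lost sites (4.90%), against 2686 kept sites (9.32%). Gene bodies held 46.2% of lost and 40.6% of kept sites, and 48.9 and 50.1% were intergenic. The gene-end difference was not stable over libraries. It turned without 7.5 min replicate 1, with 9.72% of lost and 8.96% of kept sites near gene ends, and also without untreated replicate 2, with 15.0 and 9.32%. With equal list lengths the shares were 8.98 and 9.83%. The libraries themselves differed in this property by replicate number: 13.1 and 11.1% of peaks were near gene ends in untreated and 7.5 min replicate 1, and 8.72 and 8.37% in replicate 2. Shared sites near gene ends had a median percentile of 69.4 in untreated replicate 1 and 26.9 in untreated replicate 2, while sites elsewhere had 63.7 and 54.0.

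The strongest lost sites near gene ends came from genes of varied roles, and their untreated folds were 14.9 to 20.5 in replicate 1 and 11.4 to 16.3 in replicate 2. FLG2, which encodes a filaggrin-family protein of the skin barrier, led them with 17.2 and 16.3 (chr1:152348435-152348906). CHD4, the ATPase of the NuRD remodelling complex, had 18.0 and 13.2 (chr12:6570260-6570638). EIF3D, a subunit of translation initiation factor eIF3, had 17.6 and 13.2 (chr22:36510960-36511346). FBXO11, a ubiquitin ligase subunit gene, had 19.9 and 13.1 (chr2:47906781-47907226), and TSR2, which encodes a ribosomal protein chaperone, 20.5 and 12.2 (chrX:54447492-54447844). The other 5 were ATRNL1, ARSL, CPQ, ASB7 and EFCAB3. Of these 10 sites none had a peak at 30 min, 3 had one in 1 h replicate 1 (CHD4, EIF3D and EFCAB3) and 2 in 1 h replicate 2 (CHD4 and EIF3D). The later untreated library held 4 of them and the later recovery library 7.

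The strongest kept sites near gene ends were called at every later time of the first submission. REXO5, an RNA exonuclease gene, had folds of 52.2 and 41.6 without stress and 54.9 and 42.0 at 7.5 min (chr16:20849677-20850379). RCAN2, a regulator of calcineurin, had 55.4 and 41.7, then 46.98 and 40.3 (chr6:46221024-46221687). IL6ST, the shared receptor subunit of the interleukin-6 family, had 49.8 and 39.7, then 50.9 and 37.5 (chr5:55935895-55936598). The others were HAO2, BOC, RFX7, RNF145, FBXO25, MRPL39 and CPED1. All 10 had a peak at 30 min, in both 1 h libraries, in the later untreated library and in the later recovery library, and 9 had one in the later 1 h library. RAD21 lay on 9 of them, against 3 of the 10 lost sites. Over all kept and lost sites the shares with RAD21 were 50.6 and 5.95%. The 10 kept sites were also the stronger ones, with a median untreated replicate 1 fold of 51.0 against 17.4.

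Counted by gene, 4039 protein-coding genes had a shared untreated site within 1 kb of an end, of which 469 (11.6%) had a lost and 2867 (71%) a kept site. Genes for osmolyte transport and cell volume were few: 4 of 17 had a shared site. OXSR1, a kinase that phosphorylates cation-chloride cotransporters, had a weak lost site (untreated folds 8.67 and 4.21, chr3:38163196-38163509). WNK1, the kinase upstream of OXSR1, had a kept site, with folds of 21.5 and 10.8 without stress and 13.3 and 6.72 at 7.5 min. STK39, a kinase related to OXSR1, kept its site in a single 7.5 min list. NFAT5, the transcription factor of the osmotic response, was not among the genes with a shared site.

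Of 31 immediate early and MAP kinase response genes, 10 had a shared site, 1 of them lost and 7 kept. The lost one was at MYC (chr8:127736030-127736509), with untreated folds of 12.5 and 3.21. It was a weak site, at percentile 2.00 in the untreated list where it ranked lower. It carried RAD21 and had a peak in the later untreated library. Kept sites included those of MAPK14, the p38 stress kinase, with 22.2 and 14.7 without stress and 17.2 and 9.11 at 7.5 min, and of DUSP1, a phosphatase of that kinase, with 25.5 and 7.12, then 11.5 and 5.53. Cohesin and loop factor genes had 9 genes with a shared site, none lost and 7 kept. CTCFL, the germline paralogue of CTCF, was the strongest, with 38.7 and 37.8, then 29.9 and 41.9. CTCF itself and NIPBL, the cohesin loader, kept a site in 1 of the 7.5 min lists. Luminal breast genes had 5 with a shared site, none lost and 4 kept (ELF3, FOXA1, ERBB3 and KRT18). Markers of other cell types had 5, with 1 lost, at PTPRC, the leukocyte phosphatase CD45 (untreated folds 8.78 and 11.9), and 2 kept.

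Of 53 clustered protocadherin genes, 43 had a shared site. All 43 had a kept site. These neuronal adhesion genes sit side by side and share sites: 33 of their 35 distinct sites were kept and none was lost. PCDHA5 had folds of 46.2 and 15.8 without stress and 41.6 and 16.0 at 7.5 min, and PCDHB7 had 41.4 and 17.4, then 41.7 and 15.3. Of 39 HOX genes, which pattern the body axis, 8 had a shared site and all 8 had a kept site, from 9 distinct sites. HOXB13 had 26.8 and 9.23, then 17.9 and 10.6. The share over all genes was 71%, no test was made against it, and genes of a cluster that share sites are not independent counts.

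Imprinted genes had 5 with a shared site, of which 3 were kept (MAGEL2, PLAGL1 and GNAS) and 1 lost, at IGF2, the fetal growth factor gene (untreated folds 10.6 and 3.87, chr11:2150226-2150718). The IGF2 site was weak, at percentile 4.51 in the untreated list where it ranked lower. Heat shock chaperone genes had 3, with HSP90AB1 kept and none lost. Of 80 cytosolic ribosomal protein genes, 30 had a shared site, 23 with a kept and 5 with a lost site. The 5 were RPL10L, RPL24, RPL7A, RPL9 and RPS25, whose untreated folds were 3.18 to 18.1. The strongest kept ones were RPL32, RPL10, RPL27 and RPL38. The share of ribosomal protein genes with a lost site was 16.7%, beside 11.6% over all genes.

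RAD21 of unstressed cells lay on many more kept than lost sites. A RAD21 peak of either unstressed replicate overlapped 50.6% of kept and 5.95% of lost sites. The unstressed RAD21 replicates taken singly gave 48.9 and 32.8% of kept and 5.35 and 1.94% of lost sites, and the later RAD21 library gave 67.7 and 13.0%. Seen from the libraries, 30.8 and 37.5% of untreated and 44.5 and 47.3% of 7.5 min CTCF peaks overlapped unstressed RAD21. The groups did not overlap (exact 2-sided permutation p = 0.333, the smallest possible). This share rose in step as the lists shortened, from 30.8% of 59843 peaks to 47.3% of 31074. Whether it follows list length or treatment was not tested. With equal list lengths 27.6% of lost and 55.9% of kept sites carried RAD21. The series holds no RAD21 library at 7.5 min.

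RAD21 sites were also stronger CTCF sites, so the comparison was repeated within quintiles of CTCF enrichment. In the weakest quintile, 8.50% of sites with RAD21 and 69.3% of sites without it were lost, a difference of 60.8 percentage points. The size of that difference depended on the list used for ranking. Ranked in untreated replicate 1, the shares were 50.0% of 422 sites with RAD21 and 73.9% of 8079 without. Ranked in untreated replicate 2, they were 8.07% of 2838 and 67.9% of 5663. In either ranking the share lost was lower with RAD21 than without it in each of the 5 classes. Without untreated replicate 2 the difference in the weakest quintile was 3.99 points, and with equal list lengths 6.94. Over all untreated peaks of one number, 88.8% of those with RAD21 and 42.1% of those without were found in 7.5 min replicate 1, and 89.3 and 58.3% in 7.5 min replicate 2. In the weakest quintile of untreated replicate 1 these shares were 7.80 and 3.16%, and in that of replicate 2 they were 59.6 and 16.9%.

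**Figure D4:**
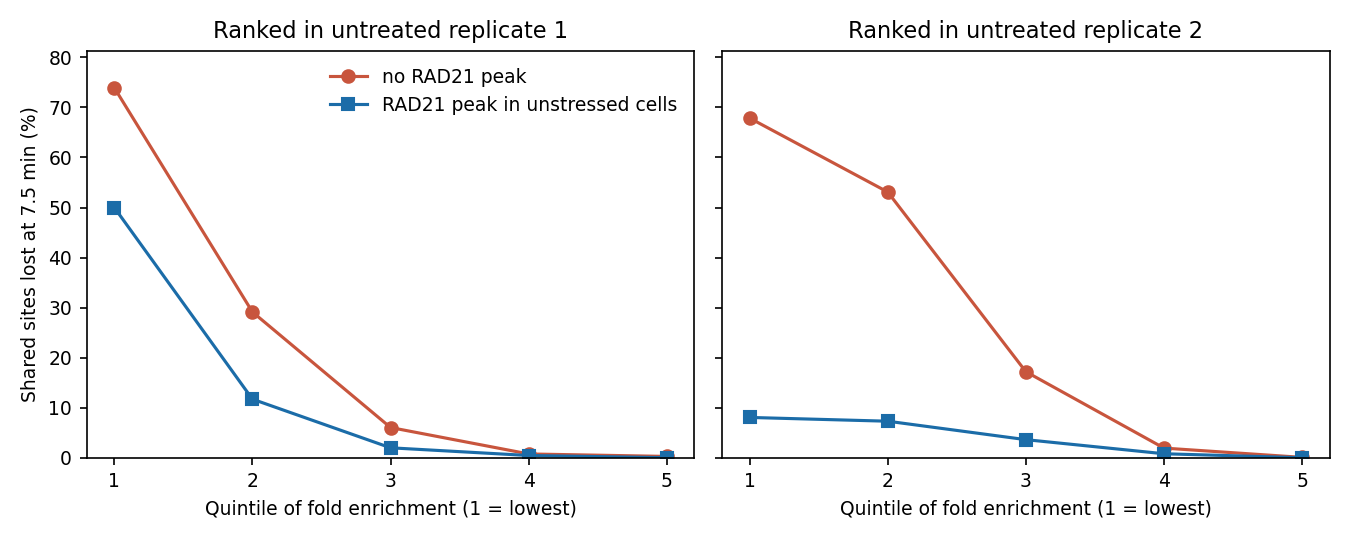
Percentage of shared untreated CTCF sites lost at 7.5 min, by quintile of fold enrichment in untreated replicate 1 (left) or untreated replicate 2 (right), for sites with and without a RAD21 peak in unstressed cells. In both panels the RAD21 points lie lower, and in the weakest quintile they differ widely between rankings (50.0 and 8.07%).

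Pol II regions present in both unstressed libraries overlapped 13.8% of lost and 18.96% of kept sites, a smaller gap than for RAD21 in these lists. In the weakest quintile of CTCF enrichment, 28.0% of sites with Pol II and 57.8% of those without were lost. In the following quintiles the shares were 26.0 and 43.8%, 10.0 and 11.8%, 1.53 and 1.06%, and 0.0883 and 0.0679%. The order thus turned among the strongest sites, and other rankings were not examined for Pol II. Sites kept in 7.5 min replicate 1 alone carried Pol II in 27.1%, RAD21 in 35.5% and a gene end in 22.1% of cases. Those kept in replicate 2 alone gave 10.7, 3.62 and 2.35%.

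The sites lost at 7.5 min were mostly also without a peak at later times. A CTCF peak was present at 30 min, in a single library titled replicate 2 whose tag gives another number, on 2.76% of lost and 85.5% of kept sites. At 1 h the shares were 10.6 and 8.79% of lost sites in replicates 1 and 2, and 95.9 and 94.8% of kept sites. These lists did not define the classes, but the classes also differed in a list from unstressed cells: the untreated library of the later submission held 77.2% of the kept and 13.0% of the lost sites. After 1 h of NaCl in the later submission 0.445% of lost and 49.1% of kept sites had a peak. After a further hour in isotonic medium the shares were 28.2 and 89.6%. The lists differed in length, with 26737 peaks at 30 min and 35374 and 34205 at 1 h. The later untreated, 1 h and recovery lists held 38571, 22018 and 46377. Whether the shares follow list length or treatment was not tested.

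**Figure D5:**
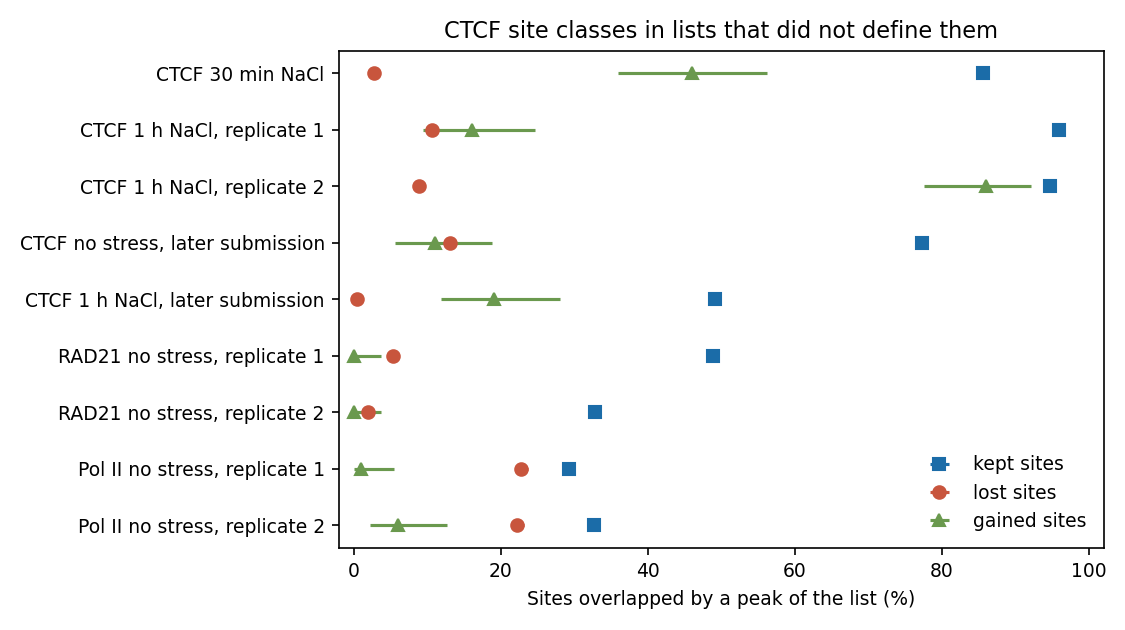
Percentage of kept (squares), lost (circles) and gained (triangles) sites overlapped by a peak in 9 other lists, with exact 95% intervals. Kept sites lie highest in each list, and the gained sites reach 86% in 1 h replicate 2 but 16% in 1 h replicate 1.

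The 100 gained sites were of another kind. None lay within 1 kb of a gene end or in a gene body, and none carried RAD21 (0 of 100, exact 95% interval up to 3.62%). In all, 86 fell in stretches of at least 2 Mb that hold no RefSeq gene of any type, many of which span centromeres, and 53 fell in the single such stretch of chromosome 10 (chr10:38719383-42149318). The chromosome 10 stretch held 13 and 236 peaks without stress and 495 and 231 at 7.5 min, in replicates 1 and 2. In replicate 2 it thus held slightly more peaks without stress. Folds of the gained sites were low, with a median of 4.08 in replicate 1 and 4.50 in replicate 2 and a highest value of 10.2. The number of peaks in all gene-free stretches was 174 and 583 without stress and 2484 and 487 at 7.5 min, so by number only replicate 1 of the stressed libraries exceeded both untreated ones. As a share of each list, which differ in length, they were 0.291 and 1.33% without stress and 6.72 and 1.57% at 7.5 min, and the groups did not overlap (exact permutation p = 0.333). Later lists ranged from 416 in 1 h replicate 1 to 2261 in 1 h replicate 2. Of the 2556 sites seen in 7.5 min replicate 1 alone, 80.05% were in such stretches. With those stretches left out, 14 gained sites remained and the log2 ratio of peak number was -0.65. Of the gained sites, 11 had a peak in the later untreated library.

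The share of shared sites that was lost varied by chromosome, from 11.4% on chromosome 19 to 24.8% on chromosome 3. Chromosomes 17, 16 and 22 followed chromosome 19 with 14.9, 15.1 and 15.5%. Across the 23 chromosomes the share lost fell with the density of protein-coding genes (Pearson r = -0.81, Spearman rho = -0.75). The chromosomes share the same 4 libraries, and their values are a description. The share absent in 7.5 min replicate 1 and that absent in replicate 2 had r = 0.90 across chromosomes. Both shares count the lost sites, which are absent from both lists, so this correlation is partly built in. On chromosome 19 the 2 shares were 12.4 and 21.0%, and on chromosome 3 they were 29.4 and 32.1%. The median percentile of enrichment was lower on chromosome 19 (38.2) than on chromosome 3 (49.4), and over chromosomes it rose with the share lost (r = 0.84), the reverse of the relation between strength and loss among single sites.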

How the data were processed

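Peak lists were deposited by the authors, 1 per library. Per the submitters' processing notes, the tools were Bowtie2 (version 2.2.6), cutadapt, MACS2, HOMER, DESeq2 and DiffBind (version 2.4.6), with hg38 as the build. Not given in the sources used here: the control and the threshold of peak calling. For each peak the authors' deposited values are a fold enrichment, which is a ratio, and -log10 p and -log10 q values. Analyses used Python 3.11.15, numpy 2.4.6, pandas 2.3.3, scipy 1.17.1 and matplotlib 3.10.9.

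Peaks on chromosomes 1 to 22 and X overlapping by 1 bp were merged into sites. Library properties were compared by exact 2-sided permutation tests, and sites and gene lists by counts. Fold and -log10 p together gave the background pileup, as the value at which the largest number of peaks, a minority in each list, fitted a Poisson tail. The steps were tested on simulated peak lists. The 19970 protein-coding genes are those of RefSeq (GRCh38.p14). Named genes are the 10 lost and 10 kept sites near gene ends of highest percentile of fold in the list where they rank lowest, and members of 10 gene lists with a lost site, with up to 4 kept ones per list. The comparison, gene lists and tests were chosen with earlier results of these data known. Alternatives covered filters on q and fold, overlap, list length, RAD21 source, distance, gene-free stretches and each library left out.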

Additional observations from a re-analysis of the deposited data

Results flagged for a closer look

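CTCF peaks on chromosome Y, which the comparison did not use, were more numerous in both 7.5 min libraries (163 in replicate 1 and 83 in replicate 2) than in the untreated libraries (69 and 58). No test was made of these counts, and whether the reads behind them belong to chromosome Y was not examined. The library with the highest count, 7.5 min replicate 1, also had the most peaks in gene-free stretches (2484).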

How the results depend on the processing

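The log2 ratio of peak number was negative under every alternative run for it (-0.82 to -0.37 with 1 library left out). The RAD21 difference in the weakest quintile stayed positive under every alternative run for it. The other results are counts or shares, which cannot change sign. The order of lost and kept sites in their share near gene ends turned without 7.5 min replicate 1 (9.72 against 8.96%). It also turned without untreated replicate 2 (15.0 against 9.32%). The number of kept sites stayed within 1.5 times of 28828 in all 11 alternatives. With libraries left out in turn, untreated peaks overlapped at 7.5 min ranged from 53.7 to 72.4%, kept sites from 28892 to 32249, lost sites from 9503 to 24516 and gained sites from 161 to 2664. The share near gene ends ranged from 4.53 to 15.0% of lost and 8.96 to 10.7% of kept sites, and the share with RAD21 from 5.58 to 14.2% and 48.3 to 50.6%. The share of lost sites present at 30 min ranged from 1.03 to 9.22% and at 1 h (mean of both replicates, 9.68% in the full set) from 6.81 to 21.8%. The difference by RAD21 in the weakest quintile ranged from 3.99 to 63.5 points. The number of gained sites was the least stable: 41 with a -log10 q of at least 5, 17 with a fold of at least 5, 355 where peaks had to overlap by 50% of both, and 14 without the gene-free stretches. Adding the later untreated library gave 1132 lost sites. With the 31074 strongest peaks of each list by -log10 p, 89.2% of untreated peaks were overlapped, 869 sites were lost and 803 gained. Lost and kept sites were then near gene ends in 8.98 and 9.83% and carried RAD21 in 27.6 and 55.9%, lost sites were present at 30 min in 1.04% and at 1 h in 20.6%, and the RAD21 difference was 6.94 points. Within 5 kb of a gene end were 14.7% of lost and 22.9% of kept sites, and by the summit 4.34 and 7.89% within 1 kb. RAD21 in both first-submission lists gave 1.33 and 31.0%, and RAD21 of the later library 13.0 and 67.7% with a difference of 49.4 points. Ranking in untreated replicate 1 gave 23.9 points. The gene-free, summit and ranking alternatives were chosen after seeing the data, and the cause of these shifts was not tested.

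Libraries of the same number deviated together from their group means at kept sites (r = 0.70), but with 2 pairs this does not establish a pairing. With the replicate number as a block, the log2 ratio was -0.60 with p = 0.5 (exact sign-flip test, the smallest p it allows), and the overlap within pairs was 63.2%. Coverage estimated from the lists assumes MACS2's default scaling and cannot separate read number from fragment length, and weak sites under the unstated calling threshold cannot be told from absent ones.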
